A study of Mus musculus with 48 samples.

Results

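Tph2, Lipf, Trdn, Slc5a7, Itgad, Il13ra2, Il1rn and Otop1 are 8 mouse genes whose messages were far less abundant in epididymal white adipose tissue (eWAT) of mice lacking angiotensinogen in hepatocytes than in eWAT of their littermates. They were selected on that difference, the measured KO and WT levels in eWAT at both housing temperatures, from among 56748 gene identifiers, with no numerical cut, and all 8 were found by symbol. The RNA-seq libraries came from male mice of 2 genotypes, hepAGT+/+ (WT) and hepAGT-/- (KO, deleted for Agt in hepatocytes), which had all eaten a Western diet (21% milk fat, 0.2% cholesterol) for 12 weeks. Housing was at 20 to 22 °C (room temperature, RT) for one set of each genotype and at 30 °C (thermoneutrality, TN), where a mouse needs no extra heat production, for the other. Liver, brown adipose tissue (BAT) and eWAT were each sequenced in 4 libraries per genotype and temperature, which makes 48 libraries, 16 of each tissue. The labels call the libraries biological replicates, number them, and name neither the Cre driver nor the age of the mice.

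The 8 genes come from unrelated families. Tph2 is the neuronal tryptophan hydroxylase, which carries out the rate-limiting step of serotonin synthesis in the brain. Lipf is gastric lipase, an acid lipase secreted in the stomach. Trdn encodes triadin, which anchors calsequestrin to the ryanodine receptor in the junctional sarcoplasmic reticulum of striated muscle. Slc5a7 is the high-affinity choline transporter of cholinergic neurons. Itgad is the alpha D subunit of a beta 2 integrin of leukocytes, found on subsets of macrophages. Il13ra2 is the high-affinity IL-13 receptor often described as a decoy, and Il1rn is the IL-1 receptor antagonist, which occupies the IL-1 receptor without signalling. Otop1 is otopetrin, a proton channel of the inner ear, of sour taste cells and of brown fat. White fat in obesity holds adipocytes, their precursors, endothelium and many macrophages, of which those that surround dying adipocytes take on a lipid-handling programme.

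The genes are spread over 7 chromosomes of GRCm38, and their positions are given by GENCODE. Tph2 (ENSMUSG00000006764) lies on the minus strand at chr10:115078641-115185022 and Trdn (ENSMUSG00000019787) on the plus strand at chr10:33080554-33476709, too far apart to be neighbours. Lipf (ENSMUSG00000024768) is at chr19:33961187-33976810 on the plus strand. Slc5a7 (ENSMUSG00000023945) is at chr17:54273590-54299034 on the minus strand. Itgad (ENSMUSG00000070369) is at chr7:128154376-128223816 on the plus strand. Il13ra2 (ENSMUSG00000031289) is at chrX:147383476-147429192 on the minus strand. Il1rn (ENSMUSG00000026981) is at chr2:24336853-24351494 and Otop1 (ENSMUSG00000051596) at chr5:38275972-38304217, both on the plus strand. Exons of Itgad overlap 4 other gene models, among them the muscle gene Cox6a2 on the opposite strand, and the strand setting of the counting is not given in the sources used here. Reads of Itgad and of these partners may therefore not be told apart, although Cox6a2 itself was at most 1.12 CPM in eWAT. In WT BAT at TN Cox6a2 reached 70.5 CPM, and Itgad there was at most 0.752 CPM. The other 7 genes share no exon with another gene model.

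Since the 8 genes are low in the same eWAT libraries, the sequence before the start is shown for 4 of them whose RefSeq window held a searched motif. RefSeq windows (GRCm38.p6) matched 6 of the 8 genes, with 8 start sites. The motifs searched on both strands were TATAAA, a box of the core promoter, then TGANTCA for AP-1, GAGGAAG for the myeloid factor PU.1, TTNNGNAA for C/EBP, CACGTG for E-box factors, and the longer motifs of STAT (whose matches can overlap those of C/EBP), NF-kappa B and PPAR. The 250 bases before each start follow, read 5′ to 3′ along the gene, with matches in capitals. They lie at chr10:115185023-115185272 (Tph2, minus strand), chr17:54299035-54299284 (Slc5a7, minus strand), chrX:147429193-147429442 (Il13ra2, minus strand) and chr2:24336610-24336859 (the first of 3 Il1rn starts, plus strand).
Tph2: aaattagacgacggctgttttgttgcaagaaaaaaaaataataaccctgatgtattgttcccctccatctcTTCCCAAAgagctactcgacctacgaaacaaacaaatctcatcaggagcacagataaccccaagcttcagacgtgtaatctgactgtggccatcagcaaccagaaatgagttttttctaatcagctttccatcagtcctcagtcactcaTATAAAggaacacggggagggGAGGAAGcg
Slc5a7: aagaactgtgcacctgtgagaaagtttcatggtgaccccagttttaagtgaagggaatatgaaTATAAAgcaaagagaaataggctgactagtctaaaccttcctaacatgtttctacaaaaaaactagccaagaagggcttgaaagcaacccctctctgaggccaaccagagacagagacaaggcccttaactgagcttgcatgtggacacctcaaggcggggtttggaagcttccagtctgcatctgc
Il13ra2: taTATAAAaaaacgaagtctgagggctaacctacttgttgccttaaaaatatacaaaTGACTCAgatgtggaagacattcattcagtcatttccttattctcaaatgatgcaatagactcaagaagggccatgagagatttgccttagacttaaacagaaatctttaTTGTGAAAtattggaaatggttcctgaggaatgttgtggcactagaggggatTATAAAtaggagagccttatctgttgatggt
Il1rn: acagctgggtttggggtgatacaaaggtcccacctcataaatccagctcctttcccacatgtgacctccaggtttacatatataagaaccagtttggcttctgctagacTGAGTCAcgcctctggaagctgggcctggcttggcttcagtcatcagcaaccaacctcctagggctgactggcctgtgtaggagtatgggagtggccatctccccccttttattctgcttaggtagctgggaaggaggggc
TATAAA began 30 bases before the start in Tph2, 31 and 248 bases before it in Il13ra2, and 187 bases before it in Slc5a7. A TGANTCA match began 193 bases before the start of Il13ra2 and 141 bases before that of Il1rn. GAGGAAG was found in 1 of the 8 windows searched, that of Tph2, 9 bases before the start. TTNNGNAA was found 179 bases before the start of Tph2, on the opposite strand, and 83 bases before that of Il13ra2. It matched 5 of the 8 windows searched, among them those of Lipf and of the later Il1rn starts, not shown. The STAT motif matched 2 of the 8 windows, both of later Il1rn starts. Among all 32851 promoter windows of the same length, 12.4% held TATAAA, 6.75% TGANTCA, 10.6% GAGGAAG, 36.8% TTNNGNAA and 5.85% the STAT motif. The NF-kappa B motif, the PPAR motif and CACGTG had no match in the 8 windows searched, which belong to 6 of the genes, and 0.283%, 0.0335% and 6.02% of all windows hold them. None of the motifs was common to all 4 windows, and GC content ran from 36.0% (Il13ra2) to 53.2% (Il1rn). These matches describe letters only.

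Totals were 28.7 to 43.7 megacounts (M) per library in eWAT, 25.3 to 39.4 M in BAT and 23.7 to 36.5 M in liver, and levels are given as counts per megacount of the library (CPM). Agt in liver, the targeted gene, averaged 355 ± 78.2 CPM (SD, n = 4) in WT and 167 ± 29.1 in KO at RT, and 401 ± 62.7 against 175 ± 33.1 at TN. The log2 differences were -1.14 (SE 0.18, adjusted p = 0.0096, edgeR) and -1.29 (SE 0.18, adjusted p = 0.00113), so the transcript was reduced but still counted. In eWAT the summed level of 10 mature adipocyte markers was 27312 to 44016 CPM in every library, against at most 339.6 CPM in liver. Hepatocyte markers in eWAT summed to 41.3 to 1707 CPM in WT RT and 121 to 4834 CPM in KO RT. At TN the sums were 25.7 to 1539 CPM in WT and 54.4 to 502 CPM in KO. Among the eWAT libraries, WT RT replicate 18 stood apart with 884 CPM of epididymis markers, where all others had at most 12.4 CPM. WT TN replicate 8 stood apart with 2.07 CPM of mesothelium markers (19.1 to 208 in the others), 75.8 CPM of nerve and Schwann cell markers (11.0 to 21.3 in the others) and 9.09 CPM of Agt. The genotype differences of the 8 genes in eWAT are therefore given with and without these libraries.

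The values below in eWAT chose the genes and are a description without a test. At RT all 8 genes had every KO library below every WT library, as had 6.38% of the 18933 genes measured in eWAT. At TN 6 of the 8 were separated in this way, against 3.87% of all genes, while the KO and WT values of Slc5a7 and Trdn overlapped. The mean level left in KO at RT was 1.14% of WT for Trdn, 1.94% for Lipf, 2.66% for Itgad, 2.74% for Tph2, 2.81% for Slc5a7, 9.23% for Il13ra2, 14.4% for Il1rn and 28.1% for Otop1. At TN the same shares were 24.0%, 22.2%, 7.89%, 3.64%, 34.6%, 6.64%, 17.1% and 12.3%. Near loss thus describes 5 of the genes at RT, but neither Il1rn nor Otop1, and at TN it does not describe Lipf, Trdn or Slc5a7. In these whole-tissue samples, fewer cells that hold a message and less of it per cell cannot be told apart.

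**Figure D1:**
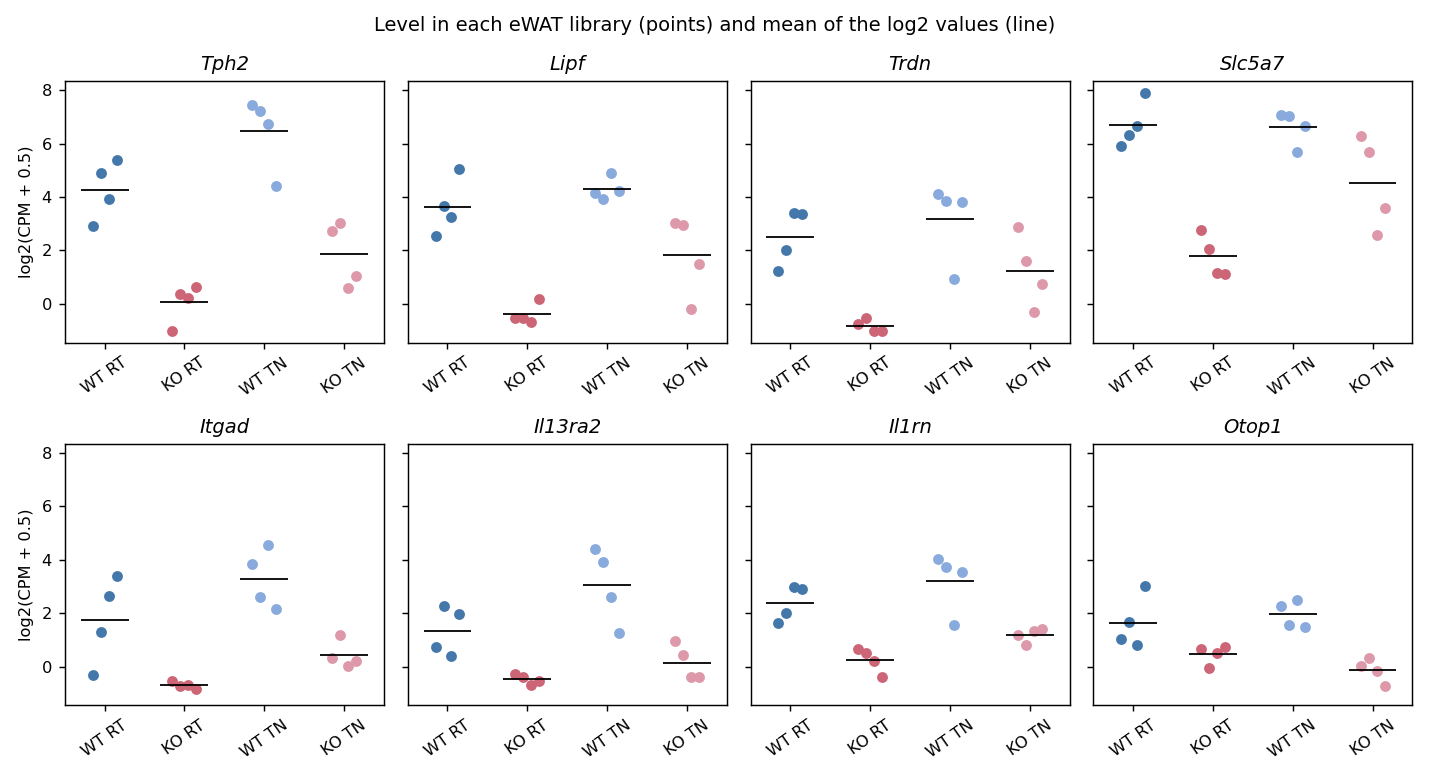
Level of each gene in the 16 eWAT libraries as log2(CPM + 0.5), by genotype and housing, with a line at the mean of the 4 log2 values. Every KO RT point lies below every WT RT point of its gene, while at TN the Slc5a7 and Trdn points of the genotypes overlap.

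Tph2 reached its highest levels in WT eWAT at TN. In WT eWAT at RT the 4 libraries held 7.01, 29.0, 14.8 and 41.5 CPM (replicates 12, 13, 15 and 18), and in KO eWAT 0, 0.807, 0.663 and 1.06 CPM (replicates 9, 10, 16 and 19). The library at 0 allows up to 0.0969 CPM, the value of 3 counts in the smallest library of its group. At TN the WT libraries held 173, 148, 106 and 20.9 CPM (replicates 6, 7, 8 and 23) and the KO libraries 6.09, 7.67, 1.02 and 1.58 CPM (replicates 3, 4, 5 and 21). The lowest WT library was above the highest KO library at both temperatures, so the genotypes did not overlap. The fitted log2 difference between KO and WT was -5.20 (SE 1.03) at RT and -4.79 (SE 0.94) at TN, and -4.69 and -4.82 without WT RT replicate 18 and WT TN replicate 8.

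Of the rest of the serotonin pathway, 20 genes of enzymes, transporters and receptors were listed, 14 had enough counts to be tested in eWAT, and they were compared between genotypes over all genes with edgeR. At RT 1 of the 14 was lower in KO and none was higher, where 3.13% of all genes were called lower and 1.2% higher. At TN none of the 14 passed (0.586% of all genes did in either direction), and their median log2 difference was 0.30 at RT and -0.11 at TN. The gene called was Maoa, monoamine oxidase A, which degrades serotonin. Maoa averaged 43.8 ± 2.76 CPM in KO and 75.7 ± 17.1 in WT at RT (log2 difference -0.80, SE 0.20, adjusted p = 0.0299), a call that was lost on leaving out any KO library or WT replicate 15 or 18 (adjusted p 0.0672 to 0.126). Tph1, the tryptophan hydroxylase of peripheral tissues, never exceeded 0.771 CPM in eWAT. Ddc, the decarboxylase that follows tryptophan hydroxylase, averaged 0.977 ± 0.815 CPM in KO and 0.702 ± 0.672 in WT at RT (adjusted p = 0.909), and 1.12 ± 1.58 against 0.454 ± 0.352 at TN (adjusted p = 0.715).

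Lipf was held by WT eWAT at both temperatures. Its WT levels at RT were 5.29, 12.1, 9.15 and 32.8 CPM (replicates 12, 13, 15 and 18) and its KO levels 0.193, 0.194, 0.12 and 0.645 CPM (replicates 9, 10, 16 and 19). Under warm housing WT held 17.3, 14.7, 29.2 and 18.2 CPM (replicates 6, 7, 8 and 23), and the KO libraries 7.60, 7.34, 0.381 and 2.31 CPM (replicates 3, 4, 5 and 21). All KO libraries were lower than all WT libraries, and 2 KO TN libraries came near the WT range. Between KO and WT, Lipf differed on the log2 scale by -5.69 (SE 0.98) at RT and -2.19 (SE 0.78) at TN, and -4.88 and -1.95 without WT RT replicate 18 and WT TN replicate 8.

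Stomach was looked for in the same libraries because Lipf is a gastric gene. Of 10 stomach and pancreas markers, Gkn1, Gkn2, Pga5 and Muc5ac were at 0 in all 16 eWAT libraries, and the sum of the 10 was at most 1.63 CPM in any of them. Among 22 lipases and cofactors, 11 were tested in eWAT, and none passed at either temperature (median log2 difference 0.03 at RT and 0.13 at TN). Of all genes 3.13% were called lower and 1.2% higher at RT, and 0.586% in either direction at TN. Lipa, the lysosomal acid lipase closest to Lipf in the family, averaged 56.7 ± 8.80 CPM in KO and 82.6 ± 14.3 in WT at RT (adjusted p = 0.0798), and 71.4 ± 1.75 against 111 ± 35.1 at TN (adjusted p = 0.0802). DESeq2 called Lipa at both temperatures (adjusted p = 0.0386 and 0.00995), and edgeR called it at TN without WT TN replicate 8 (adjusted p = 0.0219). The main lipases of adipocytes were well expressed in both genotypes, with Pnpla2 at 1909 ± 411 CPM in KO and 1542 ± 297 in WT at RT (adjusted p = 0.453) and Lipe at 1805 ± 221 and 1751 ± 281 (adjusted p = 0.944).

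Trdn had the smallest share left at RT and one of the largest at TN. At RT the WT libraries held 1.85, 3.53, 10.2 and 9.90 CPM (replicates 12, 13, 15 and 18), and the KO libraries 0.0964, 0.194, 0 and 0 CPM (replicates 9, 10, 16 and 19). In the TN groups WT had 16.7, 13.7, 1.42 and 13.6 CPM (replicates 6, 7, 8 and 23) and the KO values 6.89, 2.56, 0.318 and 1.17 CPM (replicates 3, 4, 5 and 21). The overlap at TN came from WT replicate 8, which fell below KO replicates 3 and 4. For Trdn the log2 difference was -6.41 (SE 1.30) at RT and -2.08 (SE 0.96) at TN, and -6.07 and -2.45 without WT RT replicate 18 and WT TN replicate 8.

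Trdn is known from striated muscle, so markers of skeletal muscle are given beside it. The sum of 10 such markers was 7.55 to 36.6 CPM in eWAT, with 21.4 to 36.6 in WT RT, 7.55 to 24.2 in KO RT, 20.8 to 34.5 in WT TN and 15.0 to 21.8 in KO TN. Acta1 held much of that sum, with a mean of 21.9 CPM in WT RT and 11.7 CPM in KO RT. None of the 8 markers tested was called in eWAT at RT or TN, and their median log2 difference was 0.16 at RT and -1.08 at TN. The part of muscle RNA in the Trdn values there was not tested. Of 19 genes of the calcium release complex 14 were tested, 1 was lower in KO at RT (3.13% of all genes) and none passed at TN (0.586% of all genes did). The gene called was Casq1, the calsequestrin of fast muscle that triadin binds, at 0.344 ± 0.272 CPM in KO and 4.57 ± 1.12 in WT at RT (log2 difference -3.74, SE 0.76, adjusted p = 0.0115). The call of Casq1 held with each of the 8 libraries left out (adjusted p at most 0.0386). At TN Casq1 averaged 1.67 ± 1.16 and 4.66 ± 2.49 CPM (adjusted p = 0.335). Ryr1, the ryanodine receptor of skeletal muscle, was at 1.32 ± 0.254 CPM in KO and 1.65 ± 0.576 in WT at RT (adjusted p = 0.731). Ryr2, that of the heart, was at 0.664 ± 0.431 against 3.32 ± 2.57 CPM (adjusted p = 0.121 with edgeR and 0.0176 with DESeq2). Asph, whose junctin isoform is a relative of triadin, was at 212 ± 46.0 and 245 ± 48.0 CPM (adjusted p = 0.547).

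Slc5a7 had the highest counts of the 8 genes in WT eWAT at RT. Its libraries held 59.6, 78.5, 101 and 238 CPM in WT (replicates 12, 13, 15 and 18) and 6.30, 3.68, 1.75 and 1.68 CPM in KO (replicates 9, 10, 16 and 19). At TN the WT libraries held 133, 131, 51.1 and 101 CPM (replicates 6, 7, 8 and 23), and the KO libraries 77.2, 50.3, 5.40 and 11.7 CPM (replicates 3, 4, 5 and 21). KO replicate 3 was thus above WT replicate 8, whereas KO replicates 5 and 21 were far below all WT libraries. The log2 difference was -5.17 (SE 0.92) at RT and -1.55 (SE 0.77) at TN, and -4.54 and -1.78 without WT RT replicate 18 and WT TN replicate 8.

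Chat, the enzyme that makes acetylcholine from the choline Slc5a7 carries into neurons, was at 0 in all 48 libraries. Of 20 genes of choline handling 16 were tested in eWAT. At RT 1 was higher in KO and none lower (1.2% and 3.13% of all genes were). At TN none passed (0.586% of all genes did), and the median log2 difference was 0.03 at RT and 0.28 at TN. Slc44a3, a choline transporter-like protein, was at 31.4 ± 4.10 CPM in KO and 22.6 ± 1.40 in WT at RT (log2 difference 0.46, SE 0.13, adjusted p = 0.0472), and leaving out any of the 8 libraries raised its adjusted p to between 0.0565 and 0.101. Markers of nerve and Schwann cells summed to 11.0 to 13.4 CPM in KO RT and 12.5 to 17.1 CPM in WT RT, and none of the 6 tested was called.

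**Figure D2:**
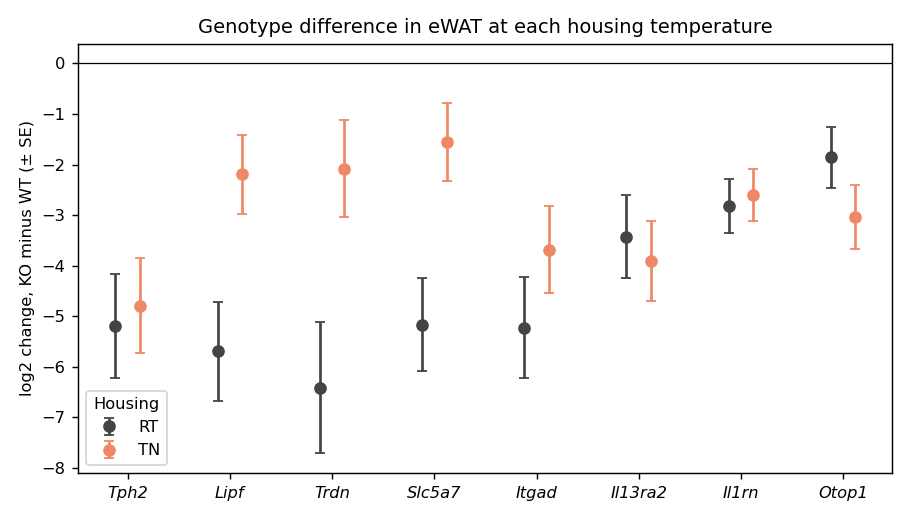
Fitted log2 difference between KO and WT in eWAT for each gene, with its standard error, at RT and at TN. Trdn, Lipf and Slc5a7 have much smaller differences at TN than at RT, whereas that of Otop1 is larger at TN. The values of Il13ra2 at RT and TN lie apart by less than their standard errors.

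Itgad was low in all KO libraries. At RT its WT levels were 0.300, 1.93, 5.77 and 9.87 CPM (replicates 12, 13, 15 and 18) and its KO levels 0.193, 0.0969, 0.12 and 0.0645 CPM (replicates 9, 10, 16 and 19). With TN housing WT held 13.8, 5.55, 23.1 and 3.94 CPM (replicates 6, 7, 8 and 23), and the KO libraries 0.755, 1.75, 0.508 and 0.653 CPM (replicates 3, 4, 5 and 21). The groups did not overlap, although the lowest WT library at RT was close to the highest KO library. The log2 difference was -5.23 (SE 1.00) at RT and -3.68 (SE 0.86) at TN, and -4.43 and -3.12 without WT RT replicate 18 and WT TN replicate 8.

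Leukocyte integrins and their adaptors gave 2 lower genes of 13 tested at RT, where 3.13% of all genes were lower, and none at TN (0.412%), with a median log2 difference of -0.45 and -0.19. Itgax (CD11c), the alpha subunit of another beta 2 integrin, was at 4.31 ± 1.89 CPM in KO and 18.8 ± 5.07 in WT at RT (log2 difference -2.16, SE 0.43, adjusted p = 0.0115), and remained called with any single library left out (adjusted p at most 0.0485). Fermt3, the kindlin that activates leukocyte integrins, was at 8.15 ± 1.54 and 14.6 ± 2.38 CPM (log2 difference -0.84, SE 0.20, adjusted p = 0.0224). The call of Fermt3 was lost without KO replicate 16 or 19 or WT replicate 13, 15 or 18 (adjusted p 0.0513 to 0.0809). Itgb2, the beta 2 subunit with which Itgad pairs, was at 20.5 ± 2.51 CPM in KO and 33.4 ± 5.80 in WT at RT (adjusted p = 0.0687, and 0.0249 with DESeq2), and at 30.6 ± 2.43 against 55.9 ± 23.0 at TN (adjusted p = 0.0598, 0.00296 with DESeq2, and 0.0123 with edgeR without WT TN replicate 8). Itgam (CD11b) was at 7.75 ± 2.77 against 10.6 ± 2.12 CPM at RT (adjusted p = 0.293). At TN Itgam was at 9.64 ± 0.913 against 16.8 ± 3.49 CPM (adjusted p = 0.0852 with edgeR and 0.0157 with DESeq2).

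Macrophage markers are given beside Itgad and the cytokine genes. Of 10 markers of lipid-associated macrophages, which gather around dying adipocytes, 5 were lower in KO at RT (Gpnmb, Ctsk, Mmp12, Trem2 and Atp6v0d2), where 3.13% of all genes were, and 1 at TN (Ctsk), where 0.412% were, with a median log2 difference of -1.67 and -1.57. The sum of the 10 was 568 to 717 CPM in WT RT, 404 to 579 in KO RT, 623 to 994 in WT TN and 422 to 570 in KO TN. Of 10 general macrophage markers 1 was lower at RT (Cd68, 3.13% of all genes) and 2 at TN (C1qb and Fcgr1, 0.412% of all genes), and their sum was 1031 to 1432 CPM in WT RT, 805 to 1076 in KO RT, 1615 to 2580 in WT TN and 1240 to 1451 in KO TN. No marker of either list was at 0 in a whole eWAT group. The part of macrophage RNA in the values of the 8 genes was not tested.

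Il13ra2 was among the lower of the 8 genes in WT eWAT at RT. Its libraries held 1.15, 4.27, 0.829 and 3.43 CPM in WT (replicates 12, 13, 15 and 18) and 0.321, 0.258, 0.12 and 0.194 CPM in KO (replicates 9, 10, 16 and 19). In the TN groups WT had 20.3, 14.4, 5.55 and 1.91 CPM (replicates 6, 7, 8 and 23) and the KO levels 1.44, 0.838, 0.254 and 0.272 CPM (replicates 3, 4, 5 and 21). There was no overlap at either temperature, and the WT libraries at TN were spread widely. For Il13ra2 the log2 difference was -3.43 (SE 0.82) at RT and -3.92 (SE 0.79) at TN, and -3.16 and -4.13 without WT RT replicate 18 and WT TN replicate 8.

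Among the other genes of the IL-4 and IL-13 system, 13 were tested. Of these 1 was lower in KO at RT (3.13% of all genes were) and none passed at TN (0.586% did), with a median log2 difference of -0.23 and -0.20. Jak1, a kinase bound to these receptors, was at 165 ± 8.79 CPM in KO and 207 ± 5.82 in WT (log2 difference -0.34, SE 0.09, adjusted p = 0.042), and its adjusted p rose to between 0.0677 and 0.184 when a library was left out. Il13ra1, the signalling IL-13 receptor chain, was at 9.33 ± 2.13 CPM in KO and 8.91 ± 0.489 in WT at RT (adjusted p = 0.934) and at 10.8 ± 1.58 against 13.6 ± 2.33 at TN (adjusted p = 0.321). Il4ra, its partner chain, was at 21.9 ± 6.70 against 28.7 ± 7.66 CPM at RT (adjusted p = 0.244).

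Il1rn was similar in the 4 KO libraries at TN. Its levels at RT were 2.59, 3.56, 7.40 and 7.00 CPM in WT (replicates 12, 13, 15 and 18) and 1.09, 0.936, 0.663 and 0.258 CPM in KO (replicates 9, 10, 16 and 19). At TN they were 15.7, 12.7, 2.44 and 11.2 CPM in WT (replicates 6, 7, 8 and 23) and 1.76, 1.24, 2.00 and 2.18 CPM in KO (replicates 3, 4, 5 and 21). WT TN replicate 8 lay close to the KO range, and the groups did not overlap. The log2 difference was -2.81 (SE 0.53) at RT and -2.61 (SE 0.52) at TN, and -2.58 and -2.94 without WT RT replicate 18 and WT TN replicate 8.

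Of 19 tested genes of the IL-1 family and its signalling, 1 was lower in KO at RT (3.13% of all genes were) and another 1 at TN (0.412% were). Their median log2 difference was -0.24 and -0.28. Irak2, a kinase that relays the IL-1 receptor signal, was at 44.6 ± 3.69 CPM in KO and 85.3 ± 10.9 in WT at RT (log2 difference -0.94, SE 0.14, adjusted p = 0.00223, at most 0.0125 with a library left out). At TN Irak2 was at 60.6 ± 4.06 and 73.0 ± 16.1 CPM (adjusted p = 0.321). Casp1, the protease that matures IL-1 beta, was at 15.0 ± 0.726 CPM in KO and 29.2 ± 9.29 in WT at TN (log2 difference -1.01, SE 0.21, adjusted p = 0.0426). Leaving out any KO library or WT replicate 6 or 7 ended that call (adjusted p 0.0612 to 0.188), and a fit to the 8 libraries alone gave 0.0708. Il1r1, the signalling receptor that Il1rn blocks, was at 30.9 ± 5.89 CPM in KO and 24.9 ± 2.15 in WT at TN (log2 difference 0.25, SE 0.17, adjusted p = 0.575), while at RT its log2 difference was -0.25 (SE 0.17, adjusted p = 0.51). Il1r2, the decoy receptor of IL-1, was at 0.0161 ± 0.0323 against 0.456 ± 0.298 CPM at RT (adjusted p = 0.102) and 0.19 ± 0.135 against 5.63 ± 8.87 CPM at TN (adjusted p = 0.076), and DESeq2 called it at both temperatures (adjusted p = 0.0102 and 0.000267). The agonist Il1b was at 0.558 ± 0.599 CPM in KO and 0.305 ± 0.127 in WT at RT (adjusted p = 0.723), and at 0.36 ± 0.164 against 0.946 ± 0.246 CPM at TN (adjusted p = 0.518). Il1a did not exceed 0.419 CPM in eWAT.

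Otop1 was the gene of the 8 with the smallest difference at RT. Its levels there were 1.53, 2.65, 1.24 and 7.53 CPM in WT (replicates 12, 13, 15 and 18) and 1.09, 0.452, 0.934 and 1.16 CPM in KO (replicates 9, 10, 16 and 19). At TN the WT libraries held 4.37, 2.44, 5.18 and 2.29 CPM (replicates 6, 7, 8 and 23) and the KO libraries 0.504, 0.762, 0.381 and 0.109 CPM (replicates 3, 4, 5 and 21). The RT groups were separated only by the step from 1.16 to 1.24 CPM, whereas at TN the nearest libraries were at 0.762 and 2.29 CPM. The log2 difference was -1.86 (SE 0.60) at RT but -0.95 without WT RT replicate 18, the library with epididymis markers, and -3.03 (SE 0.63) at TN, or -2.81 without WT TN replicate 8. Otop2 and Otop3, the other otopetrins, were at 0 in all 48 libraries. None of the 5 proton channel genes tested passed at RT, where 3.13% of all genes were lower and 1.2% higher, or at TN, where 0.586% passed. Ucp1, the uncoupling protein of brown fat, was at 1.14 ± 0.729 CPM in WT RT and 0.234 ± 0.196 in KO RT eWAT, and the 7 brown adipocyte markers together at 10.8 to 31.1 CPM in eWAT.

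Set on a common footing by exon length, the order of mean levels in WT eWAT changed with temperature. At RT Slc5a7 came first with 21.1 CPM per kilobase, followed by Lipf with 10.5, Tph2 with 8.02, Il13ra2 with 1.06, Itgad with 0.991, Otop1 with 0.94, Il1rn with 0.928 and Trdn with 0.68. The last 5 differ by less than the spread of their own libraries. At TN Tph2 came first with 39.0 CPM per kilobase, before Slc5a7 with 18.5 and Lipf with 14.1, and the other 5 lay between 1.04 and 4.63.

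The difference between TN and RT in eWAT is given for each genotype, again as a description since these libraries chose the genes. In WT the log2 difference between TN and RT was 2.24 for Tph2, 2.09 for Il13ra2, 1.33 for Itgad, 1.01 for Il1rn, 0.81 for Trdn, 0.37 for Lipf, 0.10 for Otop1 and -0.23 for Slc5a7. In KO it was 5.14 for Trdn, 3.87 for Lipf, 3.39 for Slc5a7, 2.87 for Itgad, 2.65 for Tph2, 1.60 for Il13ra2, 1.21 for Il1rn and -1.08 for Otop1. Thus 7 of the 8 were higher at TN in KO eWAT and Otop1 was lower, while the median log2 difference of all genes was 0.02. The largest steps were those of Trdn (SE 1.27), Lipf (SE 0.93) and Slc5a7 (SE 0.86). The KO TN and KO RT libraries overlapped for Tph2, Lipf, Slc5a7, Il13ra2 and Otop1, while those of Trdn, Itgad and Il1rn did not. The share of all genes separated in this way is not given here.

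Within KO TN eWAT, most of the 8 genes set the libraries in a similar order. KO TN replicates 3 and 4 were both above replicates 5 and 21 for 7 of the 8 genes, the exception being Il1rn. Otop1 is among the 7, though it was lower at TN than at RT in KO. The share of all genes with this order is not given here. Of the 14 marker lists, 6 had the same order: mesothelium (134 and 169 CPM in replicates 3 and 4, against 79.9 and 113 CPM in replicates 5 and 21), nerve and Schwann cell (19.2 and 21.3 against 15.1 and 15.0), skeletal muscle (20.2 and 21.8 against 15.0 and 15.6), neutrophil (6.66 and 9.22 against 3.18 and 4.24), hepatocyte (274 and 502 against 54.4 and 267) and brown adipocyte (13.8 and 13.6 against 10.8 and 13.0). The other 8 lists did not, among them macrophage (1240 and 1451 against 1261 and 1341) and lipid-associated macrophage (438 and 569 against 422 and 570). The part of these cell types in the values of the 8 genes was not tested. In WT RT, replicate 18 was highest for 5 of the genes and replicate 12 lowest for 6. In WT TN, replicate 6 was highest for 5 genes, and replicate 8 was highest for 3 and lowest for 3.

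This shared order was summarised as Pearson's r between genes, taken over the 16 eWAT libraries after the mean of each group had been removed, with r as a description since all genes share the same libraries. The 28 pairs of the 8 genes had r from -0.13 to 0.81 with a median of 0.43, and 25 pairs were positive. The closest were Trdn with Slc5a7 (0.81), Tph2 with Il13ra2 (0.80), Trdn with Il1rn (0.72) and Lipf with Slc5a7 (0.72). These values include WT RT replicate 18 and WT TN replicate 8, and r without those libraries is not given here. For comparison, the median r of a gene of the 8 with all other 18932 genes was between -0.01 and 0.01, and the 95th percentile between 0.49 and 0.57.

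**Figure D3:**
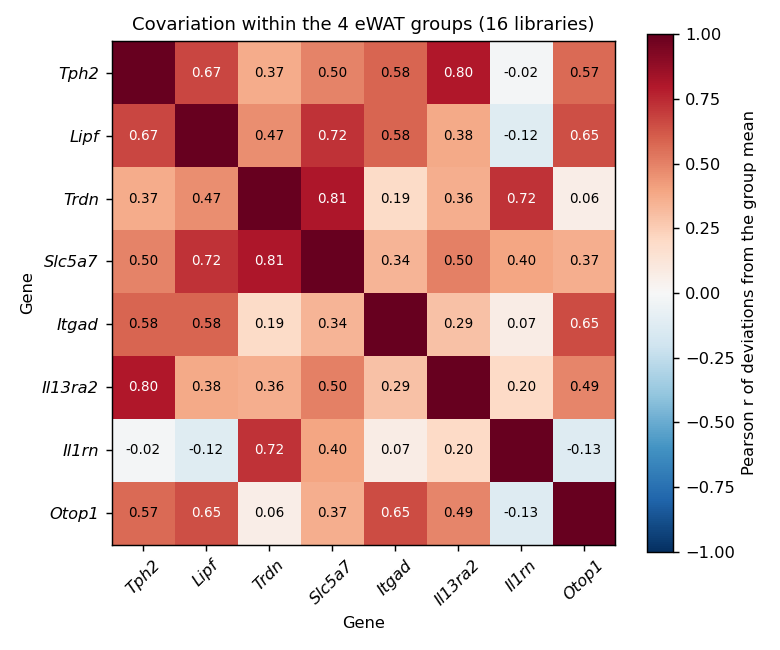
Pearson's r between the 8 genes over 16 eWAT libraries, from log2(TMM-scaled CPM + 0.5) values with each group's mean removed. Trdn with Slc5a7 (0.81) and Tph2 with Il13ra2 (0.80) are the closest pairs, and 25 of the 28 pairs are positive.

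Among 15112 genes ranked by the same r, the 3 most like each gene in eWAT were largely different from gene to gene. Tph2 was closest to the pseudogene Atp6v0c-ps2 (r 0.93), the protease inhibitor Tfpi2 (0.92) and the mitotic kinase Cdk1 (0.88). Lipf was closest to Gpc1 (0.95), a glypican, to Ret (0.94), a receptor tyrosine kinase, and to Sparc (0.92), a matrix protein. Trdn was closest to Maoa (0.95), Aldh3b1 (0.93) and Man2b1 (0.93), the last being a lysosomal mannosidase. Slc5a7 was closest to the peptide-amidating enzyme Pam (0.97), the collagen Col12a1 (0.92) and Itm2c (0.92). Itgad was closest to Sytl3 (0.91), Zfp992 (0.86) and Epop (0.84), and Il13ra2 to myostatin, Mstn (0.94), Drp2 (0.92) and Myh15 (0.88). Il1rn was closest to Slc37a2 (0.93), metallothionein Mt1 (0.91) and Cd300lb (0.88), and Otop1 to Basp1 (0.89), Fgf12 (0.85) and Slc25a1 (0.84).

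Liver and BAT played no part in the choice of the genes and carry tests. Only 4 of the 8 (Otop1, Slc5a7, Trdn and Il1rn) had enough counts to be tested in BAT and 2 (Il1rn and Il13ra2) in liver. None of these passed between genotypes by edgeR with Benjamini-Hochberg adjustment: 0 of 4 were called in BAT at RT, where 0.0887% of all genes were, and 0 of 4 at TN, where 0% were. In liver 0 of 2 were called at RT, where 0.0853% of all genes were, and 0 of 2 at TN, where 3.18% were. Slc5a7 in BAT at TN alone had an unadjusted p under 0.05 (1 of 4 there and 0 in each of the other 3 comparisons), and DESeq2 called none. The standard errors of Slc5a7, Trdn and Il13ra2 in these tests were 1.35 to 2.48 on the log2 scale, so only large differences of these genes could have passed.

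**Figure D4:**
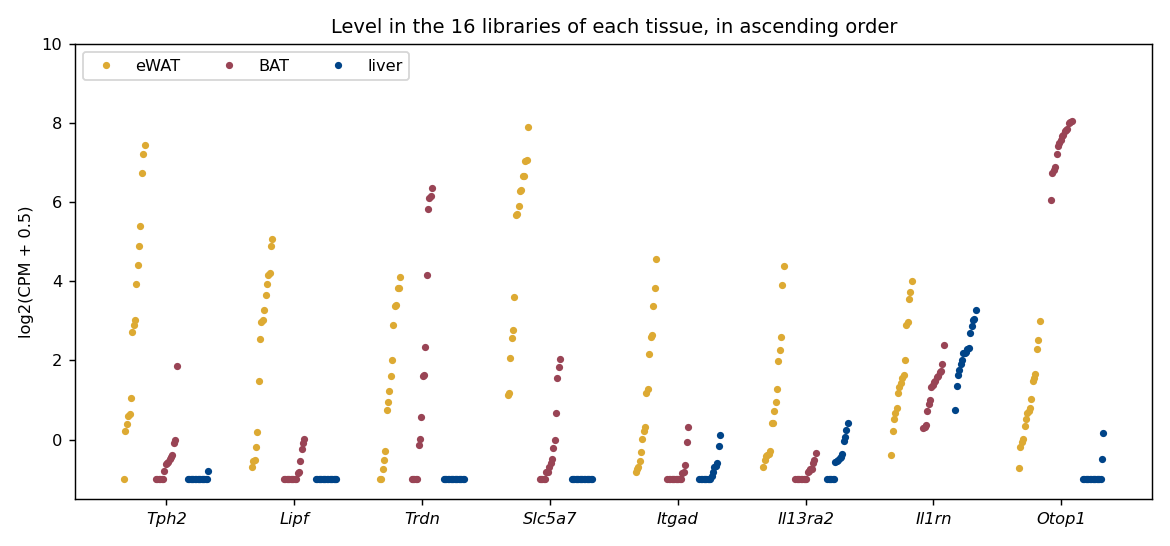
Levels of the 8 genes in the 16 libraries of each tissue as log2(CPM + 0.5), sorted from low to high. Otop1 is far higher in BAT than in eWAT, Trdn reaches higher in BAT, Il1rn is counted in all 3 tissues, and the other 5 are highest in eWAT.

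Otop1 was a brown fat message, held at 66.3 CPM or more by every BAT library. WT BAT at RT held 231, 223, 228 and 205 CPM (replicates 12, 15, 17 and 18) and KO BAT 179, 264, 257 and 260 CPM (replicates 9, 10, 14 and 19). At TN the WT libraries held 112, 118, 106 and 191 CPM (replicates 1, 6, 7 and 24) and the KO libraries 66.3, 169, 149 and 208 CPM (replicates 2, 3, 4 and 5). The genotypes overlapped at both temperatures, with a log2 difference of -0.05 (SE 0.29, adjusted p = 0.941) at RT and 0.15 (SE 0.29, adjusted p = 0.999) at TN.

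Otop1 in BAT was lower at TN than at RT in both genotypes. In WT the log2 difference between TN and RT was -1.27 (SE 0.29, adjusted p = 0.0032, edgeR), and all 4 TN libraries were below all 4 RT libraries, as for 5.14% of all genes. In KO it was -1.07 (SE 0.29, adjusted p = 0.0181), with overlap of KO TN replicate 5 and KO RT replicate 9, and the call was lost without KO RT replicate 10 (adjusted p = 0.0518) or KO TN replicate 4 (adjusted p = 0.0625). The difference between those responses was 0.20 (SE 0.41, adjusted p = 0.888). Otop1 was the 1 gene called of the 4 tested in each genotype, where 32.5% of all genes were called in WT (16.7% lower) and 15.2% in KO (8.52% lower), so a call was common in this tissue. Ucp1 in the same libraries averaged 6325 ± 1459 CPM in WT and 5837 ± 1460 in KO at RT, and 2502 ± 1460 and 2260 ± 810 at TN. The sum of skeletal muscle markers in BAT ran from 1.90 to 441 CPM in WT RT and from 2.39 to 3844 CPM in KO RT. At TN it ran from 9.47 to 5704 CPM in WT and from 1.89 to 7671 CPM in KO. The part of muscle RNA in the Otop1 values was not tested. In eWAT, where WT held a few CPM of Otop1, WT levels at the 2 temperatures overlapped.

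Trdn in BAT varied from 0 to 81.4 CPM within groups and followed the skeletal muscle markers. The 4 libraries with the most Trdn, at 81.4 (KO TN replicate 2), 70.7 (WT TN replicate 24), 68.5 (WT TN replicate 6) and 56.1 CPM (KO RT replicate 14), had muscle marker sums of 7671, 5577, 5704 and 3844 CPM. The 5 libraries at 0 had sums of 1.89 to 7.11 CPM. No genotype or temperature difference of Trdn was called in BAT (log2 differences from -0.69 to 4.60 with SE from 2.12 to 2.53).

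**Figure D5:**
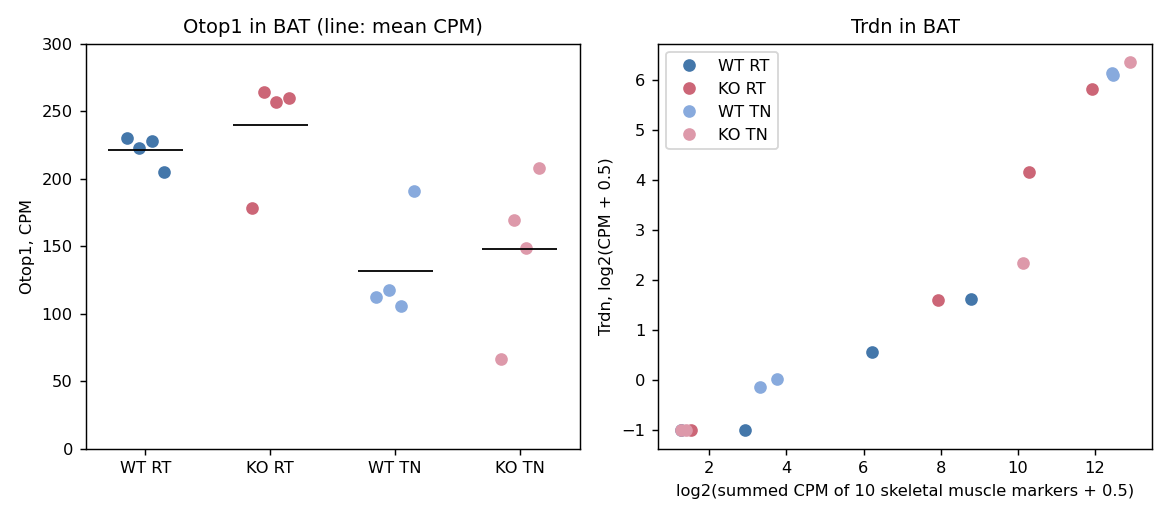
Left, Otop1 in CPM in the 16 BAT libraries with the group mean as a line. Right, Trdn against the summed CPM of 10 skeletal muscle markers in the same libraries, both on log2 scales, where the 4 libraries with the most Trdn are those with the largest marker sums.

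Slc5a7 was near the limit of counting in BAT except in 1 group. WT TN libraries held 3.07, 0.499, 3.62 and 2.46 CPM (replicates 1, 6, 7 and 24), against at most 0.355 CPM in WT RT. KO TN held 1.08 CPM in replicate 2 and at most 0.0642 CPM in the others. The groups of WT did not overlap between temperatures, and the log2 difference between TN and RT was 3.46 (SE 1.40, adjusted p = 0.068 with edgeR), which did not pass. DESeq2 (adjusted p = 0.0288) and a fit to the 8 libraries alone (adjusted p = 0.0151) called it. Between genotypes at TN the log2 difference was -3.07 (SE 1.35, adjusted p = 0.929).

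Il1rn was the gene of the 8 counted in every library of every tissue. It ran from 0.728 to 4.73 CPM in BAT and from 1.19 to 9.14 CPM in liver. Between genotypes the log2 difference was 0.41 (SE 0.50, adjusted p = 0.688) at RT and 0.24 (SE 0.50, adjusted p = 0.999) at TN in BAT, and -0.25 (SE 0.41, adjusted p = 0.901) and 0.34 (SE 0.40, adjusted p = 0.745) in liver. In liver of KO mice Il1rn averaged 3.16 ± 2.48 CPM at RT and 6.73 ± 2.20 at TN (log2 difference 1.02, SE 0.41, adjusted p = 0.341). Il13ra2 in liver was at most 0.845 CPM, and its log2 difference between genotypes was 0.50 (SE 1.57, adjusted p = 0.955) at RT and -1.09 (SE 1.52, adjusted p = 0.792) at TN.

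Levels in BAT and liver were then compared in 1 fit over their 32 libraries, in which 70.8% of 20222 genes were called. Of the 6 genes of the 8 that could be tested, 5 were called. Otop1 was higher in BAT (log2 difference 13.1, SE 0.51, adjusted p = 4.0e-15), with a mean of 185 CPM in BAT and 0.0516 CPM in liver. As 14 of the 16 liver libraries were at 0, the size of this difference is uncertain. It ran from 11.78 to 14.45 with other settings of the fit or a library left out. Trdn and Slc5a7 were at 0 in all 16 liver libraries, and their mean in BAT was at least 151-fold and 5.79-fold higher than 3 counts in the smallest liver library. Il1rn was lower in BAT (log2 difference -1.24, SE 0.24, adjusted p = 3.6e-05), as was Il13ra2 (-2.75, SE 0.85, adjusted p = 0.00501). Il13ra2 was near the limit of counting in both tissues, with a mean of 0.0621 CPM in BAT and 0.242 CPM in liver. It was at 0 in 9 of 16 BAT and 6 of 16 liver libraries. Its call was lost in an edgeR fit with a block for the replicate number (log2 difference -1.87, adjusted p = 0.237). Of the genes not tested or not called, Tph2 was at 0 in 15 of 16 liver libraries and reached 3.15 CPM in BAT, Lipf was at 0 throughout liver and reached 0.508 CPM in BAT, and Itgad reached 0.752 CPM in BAT and 0.583 CPM in liver. One liver library with Otop1, KO RT replicate 19 at 0.62 CPM, also held 14.8 CPM of Ucp1, which was at 0 in the other 15 liver libraries.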

How the data were processed

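The values are raw counts of each gene in liver, BAT and eWAT of male mice, 1 file per library, as the authors deposited them. Per the labels' protocols, Maxwell RSC simplyRNA extraction was followed by NEBNext Ultra library preparation and paired-end reading on a NovaSeq. The tools were fastp, STAR 2.6.1d and featureCounts 1.5.0-p3, and the build GRCm38 (mm10), per the submitters' processing notes. The annotation release, the strand setting and the treatment of reads with several matches are not given in the sources used here. Of the deposited counts between 1 and 20, 75.5% were even, so mates of a pair may have been counted singly, in which case counts are not independent fragments. Symbols were found for 52073 of 56748 identifiers (91.8%), and no 2 libraries held identical values.

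The 8 genes and all gene, marker and motif lists were chosen with earlier results of these data known. The labels give the groups, and p-values measure the spread between these libraries. CPM is the count per megacount of the library total, and levels per kilobase divide it by the exon length in GENCODE M21. Each tissue was fitted over its 16 libraries with edgeR 4.0.16 in R 4.3.3 (scaling by TMM, a minimum count of 10 in filterByExpr, robust quasi-likelihood F test, 1 mean per group). Benjamini-Hochberg adjustment of the two-sided p-values ran over every gene tested, with a threshold of 0.05, and the SE is the log2 difference over the root of F. The genes named are the 8, Agt, fixed partner genes, up to 3 called genes per list with a mean of at least 1 CPM, and the 3 most alike genes. Those most alike were found on log2 of TMM-scaled CPM with a pseudocount of 0.5.

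Alternatives were RLE scaling, no filter, DESeq2 1.42.0, a filter of 1 CPM in 4 libraries, the fit of only those 8 libraries that are compared, each library left out, and, for BAT against liver, a block for the replicate number. On counts simulated for eWAT at RT (18284 genes), 38 of 48 genes lowered to a fold of 0.25 and 18 of 45 lowered to 0.5 were recovered. The smallest library limits a count of 0 to 3 counts, and such limits cover counting error only.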

Additional observations from a re-analysis of the deposited data

Results flagged for a closer look

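Levels of the 8 genes were searched for libraries far from the other 3 of their group (Dixon's test, at its critical value for 4 samples), in the 46 combinations of gene and group with at least 1 CPM in a library. About 1 in 20 groups is marked by chance, and 5 were marked, all in BAT. Tph2 was at 3.15 CPM in WT TN replicate 7, against 0 to 0.499 CPM in the other 3 libraries. Trdn was at 81.4 CPM in KO TN replicate 2, the BAT library with the largest sum of skeletal muscle markers (7671 CPM), against at most 4.60 CPM in the other 3. Slc5a7 was at 1.08 CPM in the same library. Otop1 was at 178.6 CPM in KO RT replicate 9, below the other 3, which held 257 to 264 CPM, and at 191.1 CPM in WT TN replicate 24, above the other 3, which held 106 to 118 CPM.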

How the results depend on the processing

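In eWAT the log2 difference between KO and WT of all 8 genes stayed negative at both temperatures in all 208 values from the alternatives (other scaling, filters, DESeq2, only the libraries compared, single libraries left out). The median of the 8, -5.18 at RT and -2.82 at TN, ran from -5.44 to -4.48 and from -3.11 to -2.64 with a library left out. Otop1 at RT moved from -1.86 to -0.95 without WT RT replicate 18. The count of pathway genes called in eWAT at RT was 7, 20 with DESeq2, and 3 to 6 with a library left out. At TN it was 1, 3 without the filter, 3 with the filter of 1 CPM, 11 with DESeq2, 0 with only the 8 libraries compared, and 0 to 5 with a library left out (5 without WT TN replicate 8 or 23). Calls among all 18933 genes tested in eWAT also rose with DESeq2, from 821 to 1501 at RT and from 111 to 680 at TN. In BAT the count of the 8 genes called between TN and RT in WT was 1, and 2 with DESeq2 and with only the 8 libraries compared, where Slc5a7 joined Otop1. In KO it was 1, and 0 to 1 with a library left out. Of all 18032 genes tested in BAT, 5867 were called in WT and 2735 in KO, and 6639 and 3436 with DESeq2. The cause of these changes was not tested.

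Every change of sign arose from leaving out a library, in differences that were not called or not tested. The log2 differences then ran as follows. In BAT between KO and WT at RT they ran from -1.97 to 0.0132 for Slc5a7 and from -0.119 to 0.0492 for Otop1. In BAT between KO and WT at TN they ran from -4.48 to 0.063 for Trdn, from -0.203 to 0.474 for Il1rn and from -0.0778 to 0.448 for Otop1. In BAT between TN and RT they ran in KO from -3.93 to 1.30 for Trdn, from -2.02 to 2.36 for Slc5a7 and from -0.437 to 0.253 for Il1rn, and in WT from -0.0532 to 0.611 for Il1rn. In liver they ran from -0.784 to 0.982 for Il13ra2 between TN and RT in KO and from -0.923 to 0.0281 for Il1rn between KO and WT at RT. In eWAT between TN and RT in WT they ran from -0.454 to 0.387 for Slc5a7 and from -0.176 to 0.979 for Otop1. In eWAT between KO and WT they ran from -0.243 to 1.21 (RT) and -0.352 to 1.69 (TN) for Ddc, from -0.00884 to 0.162 for Lipe at RT, from -0.283 to 0.062 for Ryr1 at TN, and from -0.0371 to 0.166 for Il13ra1 at RT.

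The compared groups of a tissue share no replicate numbers, so a replicate block could be fitted only for BAT against liver, over the 26 libraries of 13 shared numbers. Same-numbered BAT and liver libraries did not deviate together (r over 14320 genes from -0.0365 to 0.0763, and 5 of 13 closest to their own number). That check cannot tell whether a number stands for a single mouse, since tissues of the same mouse need not deviate together. The labels do not say either, so the main fit took no pairs, and the fit with the block is given beside it. With the replicate block Otop1, Slc5a7, Trdn and Il1rn were called, as in the main fit, where 70.8% of all genes were called. The share of all genes called with the block is not given here. The call of Il13ra2 was lost (log2 difference -1.87, adjusted p = 0.237), and Tph2, which lacked the counts to be tested before, was called (5.19, adjusted p = 0.0171). Tests in BAT and liver covered only the 4 and 2 of the 8 genes that had enough counts, and Lipf, Trdn and Slc5a7 were at 0 in all 16 liver libraries.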
